A study of Homo sapiens with 6 samples.

Results

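Members of the tumour necrosis factor (TNF) receptor superfamily carry signals for cell death, survival and inflammation from the cell surface. Levels of 9 of them were measured in human DLD-1 colorectal adenocarcinoma cells, namely TNFRSF12A, TNFRSF1A, TNFRSF10A, TNFRSF10B, TNFRSF10D, TNFRSF11A, TNFRSF21, LTBR and FAS. They were named in a list that was drawn up with the difference between the groups of these libraries already known, so their values in that comparison are given as a description, without P values. The 9 genes are among 35810 genes with a matched transcript and among 29 receptors listed for the superfamily.

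Poly(A)+ RNA-seq libraries were made from SPT5-AID cells, a DLD-1 line in which the elongation factor SPT5 carries an auxin-inducible degron tag. The 3 libraries labelled shARMC5 came from cells given a short hairpin RNA against ARMC5, an adaptor of the CUL3 ubiquitin ligase, and the 3 labelled shNT came from cells given a nontargeting hairpin. Both groups thus carry the degron allele and a lentiviral hairpin, and no auxin is named in their labels. The study knocked ARMC5 down to ask about RNA polymerase II stability, and its methods list more than 1 hairpin construct against ARMC5, of which the labels do not say which one was used. The labels do not say whether replicates were separate cultures, so P values measure only the spread between these samples.

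Most of these receptors are trimeric proteins with extracellular cysteine-rich repeats that bind a trimeric ligand. Those with a cytoplasmic death domain (TNFRSF1A, TNFRSF10A, TNFRSF10B, TNFRSF21 and FAS) can recruit the adaptors FADD or TRADD and, through FADD, caspase-8. Those without one (TNFRSF12A, TNFRSF11A and LTBR) recruit TRAF proteins, which lead to NF-κB activation. TNFRSF10D is a decoy that binds the death ligand TRAIL but has a truncated death domain.

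The libraries held 26201112 to 40866478 estimated reads on transcripts. ARMC5 itself was at 10.76, 11.97 and 12.93 counts per 1000000 (CPM) in shARMC5 and at 23.03, 25.94 and 26.73 CPM in shNT, and it fell by 1.09 on the log2 scale (standard error 0.08, edgeR adjusted P = 5.32e-07). Every shARMC5 library was lower than every shNT library. The epithelial markers EPCAM, CDH1, KRT8, KRT18, CDX2 and CDH17 were all at 72.06 CPM or more in each library, while VIL1 was at 4.124 to 4.957 CPM in shARMC5 and 10.58 to 11.85 CPM in shNT, LGALS4 had 3 to 13 reads per library, and CDX1 was listed at 0. The 9 matched epithelial markers of 10 listed summed to 8834 to 8936 CPM in shARMC5 and to 7804 to 8103 CPM in shNT, and 4 of the 7 tested passed the threshold, KRT8 and KRT18 higher and VIL1 and CDH17 lower in shARMC5. VIL1, which encodes the microvillus protein villin, changed by -1.30 on the log2 scale (standard error 0.11, edgeR adjusted P = 2.77e-06), larger in size than that of any member. KRT8, KRT18 and EPCAM carried most of the sum, and KRT8 was measured without its main transcript, which was not matched. These marker levels moved with the same groups as the receptors below, and their part in the receptor levels was not tested. In bulk RNA, fewer cells of a type and less RNA per cell cannot be told apart. The 6 leukocyte markers summed to at most 3.41 CPM, the 6 fibroblast markers to at most 0.8922 CPM and the 4 endothelial markers to at most 1.427 CPM in any library, and the defining markers CD3E, COL3A1, LUM, CDH5 and KDR were at 0.

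TNFRSF12A, the receptor for the cytokine TWEAK and known as Fn14, was the most abundant member. It is a small receptor with a single cysteine-rich domain. Its gene lies at chr16:3018445-3022383 of GRCh38 on the plus strand. Exon 2 of 4 of its main transcript TNFRSF12A-201 (chr16:3021215-3021319, coding, plus strand) is shown because the transcript TNFRSF12A-202, described below, lacks it. The exon is 105 bases long, encodes 35 residues in frame, and holds 5 cysteine codons, which are in capitals:
TNFRSF12A exon 2: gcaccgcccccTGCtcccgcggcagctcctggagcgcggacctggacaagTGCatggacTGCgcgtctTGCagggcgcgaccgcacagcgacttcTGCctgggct

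FAS, the receptor of FAS ligand, has its membrane-spanning segment in exon 6 of 9 of the reference transcript FAS-221 (chr10:89010753-89010815, coding, plus strand). This exon and the next one are shown because each is absent from a transcript that took a sizeable share of the reads of the gene. Exon 6 is 63 bases long, and 12 of its 20 whole codons stand for hydrophobic residues, given in capitals. Exon 7 (chr10:89011999-89012081, coding) is 83 bases long, which is not a multiple of 3, and it has no capitals:
FAS exon 6: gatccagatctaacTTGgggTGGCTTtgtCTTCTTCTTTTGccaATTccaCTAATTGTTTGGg
FAS exon 7: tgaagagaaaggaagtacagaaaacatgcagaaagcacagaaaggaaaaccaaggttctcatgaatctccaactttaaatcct

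Among the 9 members, 4 passed the threshold of the edgeR fit (adjusted P under 0.1 over 13737 genes) as higher in shARMC5 and 0 as lower. Over all tested genes 4.44% were called higher, 3.30% lower and 7.75% in either direction. With scaling by library size only, more genes were called lower (495) than higher (458). The rule that named the members used this comparison, so nothing is read from the difference between those shares. The genes that rose were FAS, TNFRSF12A, TNFRSF21 and TNFRSF10B. For 5 of the 9 members every shARMC5 library lay above every shNT library in CPM, a pattern held by 12.5% of all tested genes. Of these members, TNFRSF10B and LTBR overlapped between the groups on the scale per transcript length (TPM, described below). The median log2 fold change of the 9 members was 0.06, beside a median of -0.0014 over all tested genes, and 7 members had a positive and 2 a negative value.

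**Figure D1:**
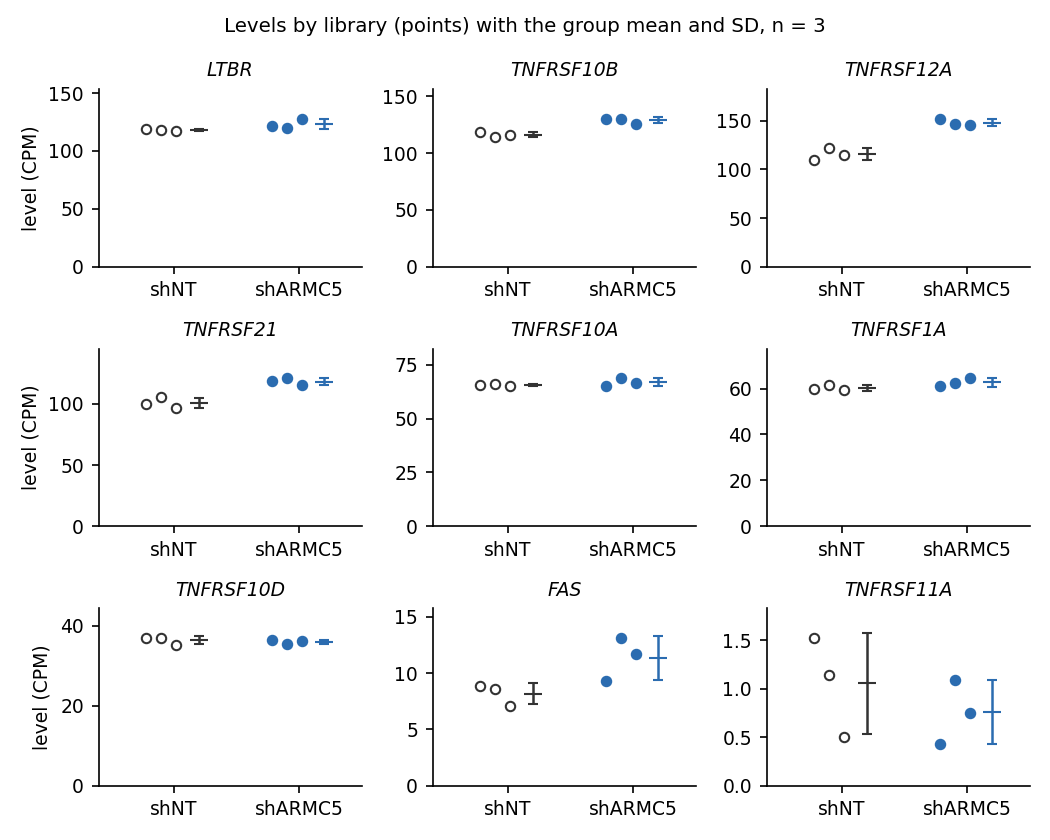
Level of each member as TMM-normalized counts (CPM, vertical axis from 0, one scale per gene) in the 3 shNT libraries (open points) and the 3 shARMC5 libraries (filled points), with the group mean and SD beside them. TNFRSF12A, TNFRSF21, TNFRSF10B, LTBR and FAS have every shARMC5 library above every shNT library, while the groups overlap for the other 4 members.

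TNFRSF12A was at 152.2, 146.7 and 145.2 CPM in the shARMC5 libraries and at 109.7, 121.9 and 115.3 CPM in the shNT libraries. The lowest shARMC5 library thus lay well above the highest shNT library. The log2 fold change was 0.36 (standard error 0.04, n = 3 against 3), or 1.28-fold. These levels rested on 3231 to 5787 reads per library. The gene passed the threshold in all 16 alternative settings, with log2 fold changes from 0.32 to 0.40.

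TNFRSF21, also called death receptor 6, has a death domain and is known from neurons and lymphocytes. Its level was 118.5, 121.1 and 115.1 CPM in shARMC5 and 99.78, 105.3 and 96.75 CPM in shNT. The groups did not overlap. The log2 fold change was 0.23 (standard error 0.04), from 2711 to 4776 reads per library, and the gene passed the threshold in all 16 alternatives. A single matched transcript held the gene, so no division between transcripts enters its level.

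TNFRSF10B and TNFRSF10A, known as DR5 and DR4, are the death domain receptors for TRAIL. TNFRSF10B was at 130.3, 130.2 and 125.9 CPM in shARMC5 and at 118.2, 113.8 and 115.9 CPM in shNT, again without overlap. The log2 fold change of TNFRSF10B was 0.15, with a standard error of 0.03. When the average length of the transcripts of each gene was entered as an offset, the log2 fold change was 0.07 and the gene did not pass the threshold, both in edgeR and in DESeq2, the latter being the kind of fit that the methods of the study describe. The average effective length of TNFRSF10B was 3235 bases in shARMC5 and 3070 bases in shNT, and its TPM, a level per length that the authors scaled to the same sum in each library, was 55.65 ± 1.62 (SD, n = 3) against 53.52 ± 3.08. The TPM ranges of the groups overlapped, whereas the CPM ranges did not.

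TNFRSF10A did not pass the threshold. It was at 65.17, 68.77 and 66.46 CPM in shARMC5 and at 65.55, 65.82 and 64.95 CPM in shNT, and the groups overlapped. The log2 fold change of TNFRSF10A, 0.03 with a standard error of 0.04, turned to -0.05 with the length offset. The decoy TNFRSF10D was at 36.39, 35.35 and 36.08 CPM in shARMC5 and 36.98, 37.04 and 35.22 CPM in shNT, a log2 fold change of -0.02 (standard error 0.05). The other TRAIL decoy, TNFRSF10C, is anchored by a lipid and lacks a cytoplasmic domain. It had only 21 to 57 reads per library. On the TPM scale both decoys summed to 0.161 to 0.171 of both death receptors in the shARMC5 libraries and to 0.164 to 0.182 in the shNT libraries, so the ratios of the groups overlapped. These 4 genes are neighbours on chromosome 8 and close paralogs, and reads that fit more than 1 of them were divided by the authors' quantification.

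FAS had the largest standard error of the log2 fold change among the members that passed. It was at 9.272, 13.16 and 11.7 CPM in shARMC5 and at 8.871, 8.574 and 7.102 CPM in shNT. The lowest shARMC5 library lay just above the highest shNT library. The log2 fold change was 0.48 (standard error 0.13), from 199 to 519 reads per library. This call was lost in 9 of the 16 alternatives. It was lost without shARMC5 replicate 2 (log2 fold change 0.35), without shARMC5 replicate 3 (0.46) and without shNT replicate 1 (0.54), 2 (0.51) or 3 (0.39), and held only without shARMC5 replicate 1 (0.60) among the fits that left out a library. With the length offset the log2 fold change was 0.42 and the call was lost in both tools.

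LTBR, the lymphotoxin beta receptor, signals mainly through the noncanonical NF-κB route. It was at 121.8, 120.3 and 128 CPM in shARMC5 and at 118.6, 118.1 and 117.4 CPM in shNT. The groups did not overlap on this scale, but the log2 fold change of 0.06 (standard error 0.03) did not pass the threshold. With the length offset the log2 fold change of LTBR was 0.01 in both tools. Its TPM ranges overlapped, at 98.32, 95.45 and 102.9 in shARMC5 and 109.2, 96.79 and 91.88 in shNT. TNFRSF1A, the main receptor of soluble TNF, was at 60.98, 62.45 and 64.55 CPM against 59.65, 61.69 and 59.21 CPM, with overlap and a log2 fold change of 0.06 (standard error 0.04).

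TNFRSF11A, the RANK receptor of osteoclast precursors and mammary epithelium, had few reads. It had 13, 43 and 19 reads in the shARMC5 libraries and 50, 37 and 14 reads in the shNT libraries. The log2 fold change was -0.47 with a standard error of 0.43, so the groups did not differ beyond the spread between libraries. TNFRSF11A-201, 1 of its transcripts, had 0, 25 and 0 reads in shARMC5 and 26, 22 and 0 reads in shNT. Leaving out 1 library moved it between -0.86 and -0.11, without a call in any setting.

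**Figure D2:**
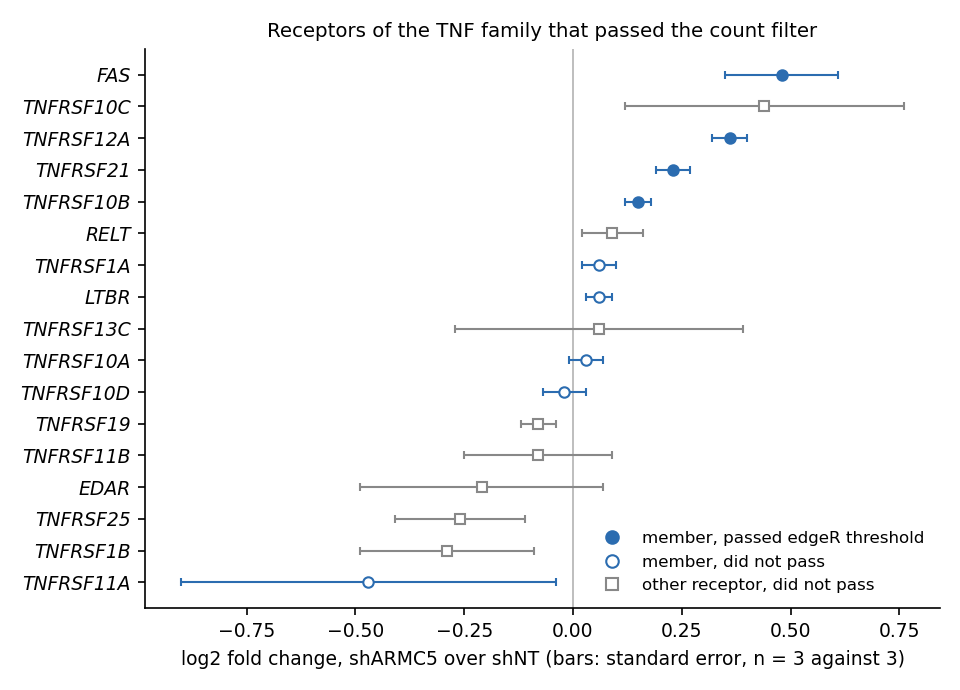
Log2 fold change of shARMC5 over shNT (horizontal axis) for the 9 members (circles) and the 8 other receptors that passed the count filter (squares), with standard errors from the edgeR fit as bars, n = 3 against 3. Filled symbols passed the threshold: FAS, TNFRSF12A, TNFRSF21 and TNFRSF10B, at 0.48, 0.36, 0.23 and 0.15.

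Levels were compared between genes on the TPM scale, which is per length. In shNT TNFRSF12A had the highest level, 196.9 ± 10.4 TPM (SD, n = 3), or 39.3% of the summed level of the 9 members. LTBR followed at 99.29 ± 8.92 TPM, TNFRSF10B at 53.52 ± 3.08, TNFRSF1A at 45.67 ± 1.36, TNFRSF21 at 42.64 ± 2.42, TNFRSF10A at 39.63 ± 2.67, TNFRSF10D at 15.08 ± 0.87, FAS at 7.444 ± 0.616 and TNFRSF11A at 0.4455 ± 0.3994 TPM. Among neighbours in this order, only the library ranges of TNFRSF21 and TNFRSF10A overlapped. Summed over transcripts annotated as protein coding, FAS in shNT was at 3.742 TPM instead of 7.444, so about as much of its level came from transcripts of other types. In the same sum TNFRSF1A, at 40.23 TPM, stood below TNFRSF21, at 42.64 TPM. In shARMC5 TNFRSF12A was at 248.1 ± 8.58 TPM, or 44.1% of the sum. TNFRSF21, at 49.42 ± 1.94 TPM, stood above TNFRSF1A, at 47.76 ± 2.88 TPM, with overlapping ranges. The other members kept their places in the order. FAS was at 9.831 ± 1.09 TPM in shARMC5, and its TPM ranges did not overlap with shNT.

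The division of reads between transcripts was examined for the members with more than 1 matched transcript. It is an estimate, since transcripts of a gene share most of their sequence, and it was given no test. TNFRSF12A-201 held 75.4% ± 3.51 (SD, n = 3) of the TPM of the gene in shARMC5 and 77.3% ± 4.26 in shNT. TNFRSF12A-202, which lacks the cysteine-rich exon printed above and encodes 94 instead of 129 residues, held 15.3%, 17% and 21.1% in shARMC5 and 13.7%, 12.6% and 15.5% in shNT, with overlap. The exon-skipping form was thus a minor share of the most abundant member in both groups.

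TNFRSF10B-201, the main transcript, held 74.2%, 67.7% and 68.9% of the TPM of its gene in shARMC5 and 65.2%, 67.1% and 64.4% in shNT, higher in every shARMC5 library. TNFRSF10B-202, which lacks 87 coding bases and so 29 residues, held 18.6% ± 1.93 and 16.1% ± 1.74. TNFRSF10B-207, annotated as subject to nonsense-mediated decay, held 6.1%, 5.73% and 5.01% in shARMC5 and 8.33%, 8.16% and 9.09% in shNT. The retained-intron transcripts TNFRSF10B-206, at 2.35% to 3.61% against 3.62% to 4.49%, and TNFRSF10B-203, at 0% to 0.64% against 1.49% to 4.85%, were likewise lower in every shARMC5 library, on 17 to 30 and 0 to 22 reads. The shares of a further retained-intron transcript, TNFRSF10B-208, overlapped, at 0.311%, 3.31% and 2.66% in shARMC5 and 1.61%, 2.92% and 3.06% in shNT, on 12 to 172 reads. The shares of TNFRSF10B-207 rested on 67 to 142 estimated reads per library.

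The transcripts of FAS were grouped by the 2 exons printed above. Those with both exons were at 2.15, 5.5 and 3.5 TPM in shARMC5 and at 5.27, 3.79 and 2.73 TPM in shNT, with overlap. Most reads of this form were assigned to FAS-220, which has no defined coding sequence (79, 259 and 67 in shARMC5, 117, 122 and 0 in shNT). The full-length coding transcript FAS-221 had only 3, 11 and 12 reads in shARMC5 and 36, 15 and 27 reads in shNT, not scaled for depth. The 12 reads of shARMC5 replicate 3 came from 25425783 matched reads and the 15 of shNT replicate 2 from 32387283. Per depth these libraries were about level, so the groups were not clearly apart. The share of FAS-221 in the TPM of the gene was lower in every shARMC5 library. It was 0.437%, 1.16% and 1.95% in shARMC5 and 6.28%, 2.62% and 5.92% in shNT. Transcripts without exon 7, of which FAS-203 held the reads, were at 2.63, 2.72 and 3.56 TPM in shARMC5 and at 1.38, 1.56 and 1.48 TPM in shNT, without overlap. FAS-203 is annotated with 197 coding residues, beside 335 in FAS-221, since the loss of exon 7 shifts the reading frame. Transcripts without exon 6, of which FAS-204 held the reads and encodes 314 residues, were at 3.64, 2.33 and 2.74 TPM in shARMC5 and at 0.788, 2.05 and 2.12 TPM in shNT, with each shARMC5 library above each shNT library. As a share of the TPM of the gene FAS-204 overlapped between the groups, at 42.3%, 21.8% and 26.8% in shARMC5 and 9.87%, 27% and 31.4% in shNT, whereas FAS-203 did not, at 30.6%, 25.5% and 34.8% against 17.3%, 20.6% and 21.8%. A FAS without the transmembrane segment is known as a soluble form. These FAS forms rested on only 45 to 69 estimated reads per shARMC5 library and 16 to 42 per shNT library for FAS-204, and on 126 to 171 and 69 to 81 for FAS-203, and the versions of both in the files differ from the annotation used here.

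**Figure D3:**
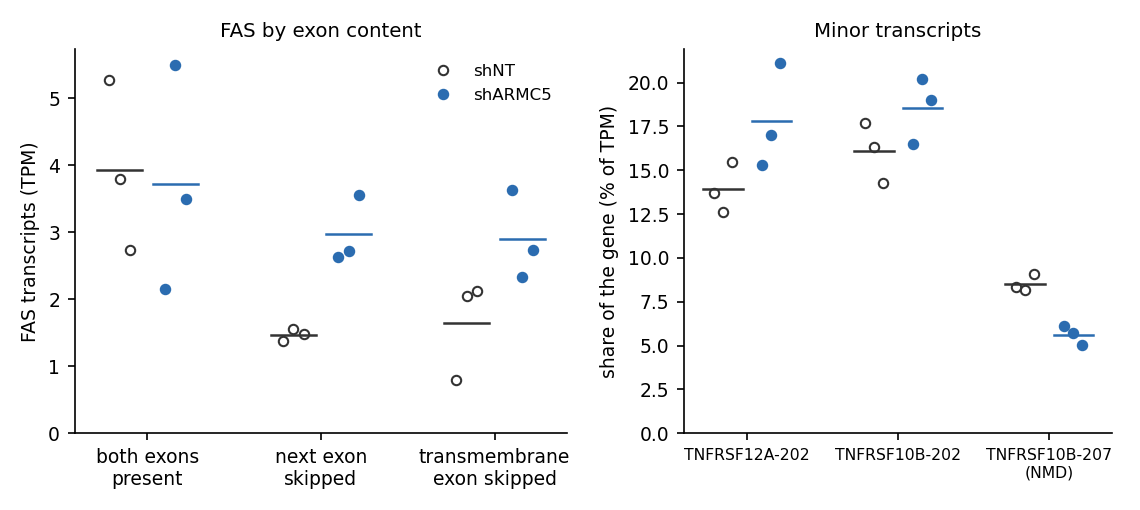
Left, summed TPM of FAS transcripts by their content of exon 6 (transmembrane) and exon 7 (next); right, share of the TPM of the gene held by 3 minor transcripts, NMD standing for nonsense-mediated decay. Open points are the 3 shNT libraries, filled points the 3 shARMC5 libraries, lines the group means. FAS with both exons overlaps between the groups, as do TNFRSF12A-202 and TNFRSF10B-202, while TNFRSF10B-207 is lower in every shARMC5 library.

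Promoter sequences from RefSeq (GRCh38.p14) were matched for 5 of the 9 members, namely FAS, LTBR, TNFRSF11A, TNFRSF1A and TNFRSF21. The 250 bases upstream of the start are printed for FAS and TNFRSF21, the matched members that passed the threshold together. The FAS window is chr10:88990548-88990797 on the plus strand, and the TNFRSF21 window is chr6:47309906-47310155 on the minus strand, printed 5′ to 3′ along the gene. The pattern searched for AP-1 was TGANTCA, with any base allowed at N. Capitals mark a match to it, found once in FAS at positions -242 to -236 from the start, with A at N, and not in TNFRSF21:
FAS promoter: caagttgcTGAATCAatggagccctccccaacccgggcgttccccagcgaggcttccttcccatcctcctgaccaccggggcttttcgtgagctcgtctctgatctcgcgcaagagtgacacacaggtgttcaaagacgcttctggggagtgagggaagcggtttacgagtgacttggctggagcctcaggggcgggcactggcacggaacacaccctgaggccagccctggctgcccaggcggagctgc
TNFRSF21 promoter: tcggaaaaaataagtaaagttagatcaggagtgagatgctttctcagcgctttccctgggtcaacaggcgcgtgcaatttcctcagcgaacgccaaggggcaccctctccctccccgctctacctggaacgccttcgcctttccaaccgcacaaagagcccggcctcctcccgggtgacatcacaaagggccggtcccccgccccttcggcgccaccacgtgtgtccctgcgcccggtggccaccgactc

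Both strands were searched, and a palindromic match was counted once. AP-1 matches were found in 6.57% of 35116 RefSeq promoters of the same length. The TEAD motif GGAATG and the NF-kB motif were found in none of the 5 member windows, beside 11.9% and 9.96% of all promoters. The SP1 motif GGGCGG was found once in FAS and once in TNFRSF21, 4 times each in LTBR and TNFRSF11A and not in TNFRSF1A, beside 42.6% of promoters with at least 1 match, and none of these matches overlapped the AP-1 match.

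The rest of the receptor superfamily was examined from a list of 20 further genes. Of these, 8 passed the count filter (TNFRSF1B, TNFRSF10C, TNFRSF11B, TNFRSF13C, TNFRSF19, TNFRSF25, RELT and EDAR), and edgeR called 0 of them at an adjusted P under 0.1. The unadjusted edgeR P was under 0.05 for 1 of the 8, TNFRSF19, and DESeq2 called 0 with 0 at an unadjusted P under 0.05. Their median log2 fold change was -0.08, with a range from -0.29 to 0.44. TNFRSF19, an epithelial receptor without a death domain, was the most abundant of them, at 104.5, 97.95 and 96.95 CPM in shARMC5 and 106.6, 101.3 and 109.3 CPM in shNT. Its value, chosen for mention after it was seen, was a log2 fold change of -0.08 (standard error 0.04, edgeR adjusted P = 0.272).

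The other 12 receptors stayed under 10 reads in each library, and 5 of them were listed at 0. These 12 include CD40, CD27, TNFRSF4, TNFRSF8 and TNFRSF9, which are known from lymphocytes. TNFRSF14 is among the 5 at 0, but its main transcript was not matched, so its level is not assessed here. TNFRSF11B, the secreted decoy of the RANK ligand, was at 3.729, 3.727 and 4.877 CPM in shARMC5 and 4.435, 4.966 and 3.533 CPM in shNT. TNFRSF6B, the secreted decoy of FAS ligand, was listed at 0 reads in all 6 libraries.

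Of 18 listed ligand genes, 17 had a matched transcript and 8 passed the filter. edgeR and DESeq2 each called 0 of the 8, and 0 had an unadjusted P under 0.05 in either tool. TNFSF12, which encodes TWEAK, the ligand of TNFRSF12A, was at 9.206, 10.55 and 9.913 CPM in shARMC5 and at 9.88, 9.561 and 9.386 CPM in shNT, with a log2 fold change of 0.04 (standard error 0.09). On the TPM scale TNFSF12 averaged 12.34 in shARMC5 and 11.75 in shNT, beside 9.011 and 10.42 for TNFSF13 and 6.261 and 6.67 for TNFSF15, which were chosen for mention after their levels were seen. TNFSF10, which encodes TRAIL, had 36 to 62 reads per library (log2 fold change -0.36, standard error 0.26, edgeR adjusted P = 0.508). FASLG had 5 to 12 reads per library and was not tested. TNF and TNFSF11, the RANK ligand, were listed at 0 reads in all libraries. LTB was listed at 0 on transcripts other than its main one, and LTA was not matched.

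The signalling genes downstream were taken from 4 lists of adaptors, TRAF and IAP proteins, ubiquitin and kinase components, and the mitochondrial arm with executioner caspases. With the ligands these hold 68 genes, of which 57 were tested, 4 rose and 3 fell, beside 4.44% and 3.30% of all genes tested. Their median log2 fold change was 0.02, with 33 positive and 24 negative values, beside 49.5% positive values among all genes. The 7 calls were 2 with the length offset in edgeR, 4 in DESeq2 and 3 to 6 when 1 library was left out, the lowest without shNT replicate 1. The lists were written out by role, with earlier results of these data known.

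Among the death adaptors, 1 rose and 1 fell of 9 tested. RIPK1, the kinase that TNFRSF1A recruits for survival or death signalling, was at 43.46, 40.92 and 41.24 CPM in shARMC5 and 35.91, 38.71 and 35.97 CPM in shNT (log2 fold change 0.18, standard error 0.05, edgeR adjusted P = 0.0556). TRADD, the adaptor that brings RIPK1 and TRAF2 to TNFRSF1A, was at 11.61, 11.44 and 10.94 CPM against 13.06, 14.13 and 13.1 CPM (log2 fold change -0.24, standard error 0.08, edgeR adjusted P = 0.0964). Neither pair of groups overlapped. The RIPK1 call was lost without shARMC5 replicate 1 (0.16) or 2 (0.20) and without shNT replicate 1 (0.17) or 3 (0.17), and the TRADD call was lost without any 1 library, at values from -0.26 to -0.21. In all the RIPK1 call was lost in 9 and the TRADD call in 13 of the 16 alternatives, for TRADD including DESeq2.

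The adaptor and caspase next to the death receptors gave no call. FADD was at 61.87, 60.04 and 62.17 CPM in shARMC5 and 59.83, 59.9 and 57.67 CPM in shNT (log2 fold change 0.05, standard error 0.04). CASP8, measured without its main transcript, which was not matched, was at 31.05, 31.59 and 30.81 CPM against 31.75, 34.2 and 31.98 CPM (log2 fold change -0.07, standard error 0.05). CFLAR, which encodes the caspase-8 inhibitor FLIP, was at 50.98, 50.26 and 51.35 CPM against 54.23, 50.34 and 46.36 CPM (log2 fold change 0.01, standard error 0.05). RIPK3, the necroptosis kinase, was listed at 0 reads in all libraries.

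Among 10 TRAF and IAP genes, TRAF5 fell and TRAF4 rose. TRAF5, an adaptor of LTBR and other receptors without a death domain, was at 12.9, 12.6 and 12.29 CPM in shARMC5 and 17.53, 16.38 and 17.84 CPM in shNT (log2 fold change -0.45, standard error 0.07, edgeR adjusted P = 0.00124), and this call held in all 16 alternatives. TRAF4 was at 112.6, 108.7 and 116.9 CPM against 102.6, 100.9 and 107.7 CPM (log2 fold change 0.12, standard error 0.04, edgeR adjusted P = 0.0792). The TRAF4 call was lost without shARMC5 replicate 1 (0.12) or 3 (0.09) and without shNT replicate 1 (0.11) or 2 (0.10), and in all it was lost in 11 of the 16 alternatives, DESeq2 and library size scaling among them. The other 8 genes of this list gave values from -0.43 to 0.07.

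Of 17 ubiquitin and kinase genes, only MAP3K14 passed the threshold. It encodes NIK, the kinase of the noncanonical NF-κB route that TNFRSF12A and LTBR use. It was at 71.86, 73.46 and 68.08 CPM in shARMC5 and 60.44, 63.69 and 56.24 CPM in shNT (log2 fold change 0.24, standard error 0.05, edgeR adjusted P = 0.00572). The call held in 15 of 16 alternatives and was lost with the length offset in edgeR, at the same log2 fold change of 0.24.

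Of 13 genes of the mitochondrial arm and the executioners, 1 rose and 1 fell. BCL2L1, which encodes the survival protein BCL-XL, was at 256.4, 255.5 and 248 CPM in shARMC5 and 230.4, 222.8 and 221.4 CPM in shNT (log2 fold change 0.17, standard error 0.03, edgeR adjusted P = 0.00128), and its call held in all 16 alternatives. APAF1, the scaffold of the apoptosome, was at 43.32, 40.16 and 41.56 CPM against 46.34, 47.44 and 45.14 CPM (log2 fold change -0.15, standard error 0.05, edgeR adjusted P = 0.0848). The APAF1 call was lost without any 1 library other than shARMC5 replicate 1, at values from -0.17 to -0.13, and in 10 of the 16 alternatives in all. With the length offset the log2 fold change was -0.34, called in DESeq2 but not in edgeR.

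**Figure D4:**
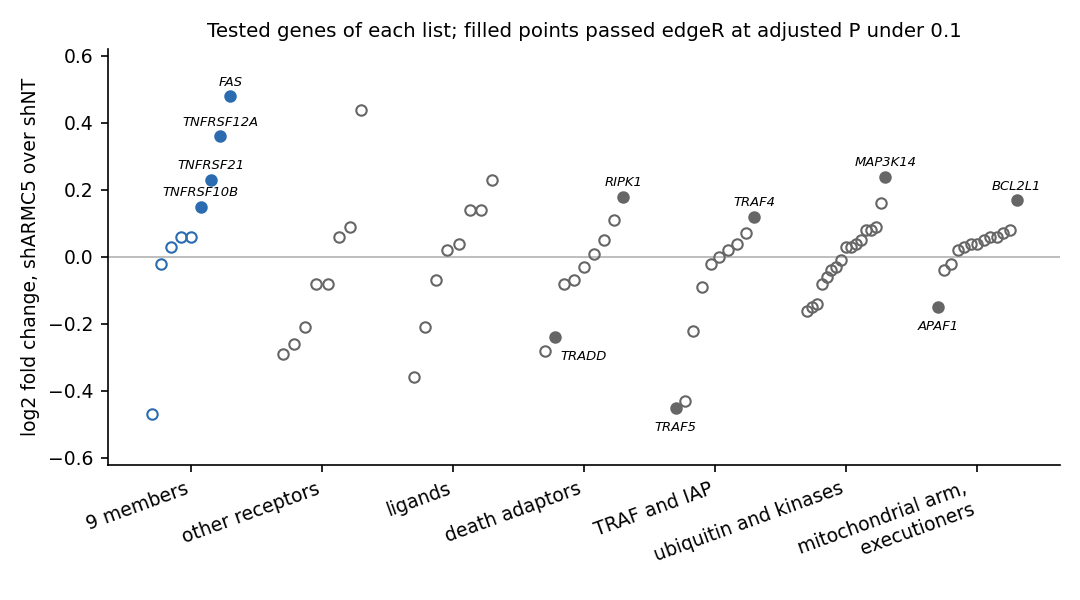
Log2 fold change of shARMC5 over shNT (vertical axis) for every tested gene of each list (columns), ordered by size within a list. Filled points passed the edgeR threshold and are named; among the 57 tested ligands and signalling genes these are RIPK1, TRAF4, MAP3K14 and BCL2L1 above 0 and TRADD, TRAF5 and APAF1 below 0.

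**Figure D5:**
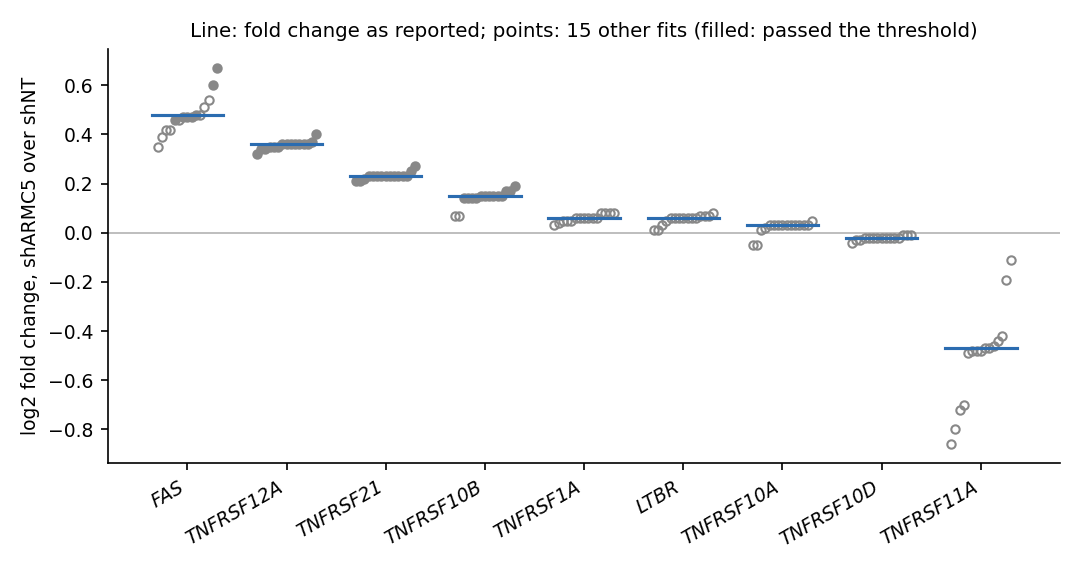
Log2 fold change of shARMC5 over shNT (vertical axis) for each member (columns) as reported (line) and in 15 other fits (points, filled where the gene passed the threshold). TNFRSF12A and TNFRSF21 are filled throughout at 0.32 to 0.40 and 0.21 to 0.27, TNFRSF10B has 2 open points at 0.07, and FAS runs from 0.35 to 0.67 with open points among the filled ones.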

How the data were processed

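Poly(A)+ RNA-seq of 6 libraries (3 shARMC5, 3 shNT) was analysed, grouped by the labels. Reads were trimmed with cutadapt 4.2 and quantified with salmon 1.9.0 with GC correction by the authors; the transcript set is not given in the sources used here. The deposited values are estimated counts and TPM per transcript, with effective lengths, which entered the length offsets and average lengths. Of 177456 transcripts, 165533 matched GENCODE 44 (GRCh38) by identifier without version, 151923 of them in the same version; the unmatched ones held 2.96% to 3.04% of reads and were left out. No strand setting is stated, so reads cannot be told apart by strand where exons overlap those of opposite genes (TNFRSF12A with CLDN6, TNFRSF10A with TNFRSF10A-AS1 and TNFRSF10A-DT, TNFRSF10B with RHOBTB2, LTBR with SCNN1A, FAS with ACTA2 and ENSG00000286116). Exons of FAS also overlap those of STAMBPL1 on the same strand.

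Estimated counts were added up by gene and then rounded, kept where 3 or more libraries had 10 or more, and fitted with edgeR 4.0.16 (R 4.3.3; quasi-likelihood F test, robust, TMM factors 0.9924 to 1.016, condition as the only term, Benjamini-Hochberg, threshold 0.1). Levels are TMM-normalized CPM, or TPM summed per gene. A standard error is the log2 fold change divided by the square root of F. The fits were also run on simulated data, but no outcome is given here, so nothing is read from that check. DESeq2 1.42.0, other scalings, filters and left-out libraries were alternatives.

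Named genes were ARMC5, the members, called genes of the lists (at most 5 each way), binding partners of members, and the 5 genes most correlated with TNFRSF12A, of which 1 is not reported here. The members and lists were chosen with earlier results of these data known.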

Additional observations from a re-analysis of the deposited data

How the results depend on the processing

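The edgeR fit as reported called 1064 genes, 610 higher and 454 lower, and with scaling by library size only 953, 458 higher and 495 lower. The count of 1064 was 235 with the transcript length offset in edgeR, 568 with the offset in DESeq2, 532 with unmatched transcripts kept, 681 with protein coding transcripts only and 676 at an adjusted P under 0.05. Leaving out 1 library gave 536 (without shNT replicate 1) to 1085 genes, with 600 without shARMC5 replicate 2 and 694 without shNT replicate 3. Of the 235 genes called with the offset in edgeR, 205 were among the 1064. Members called fell from 4 to 2 with the length offset in edgeR and in DESeq2, and ranged from 3 to 4 without 1 library. Pathway genes called, 7 as reported, were 2 with the length offset in edgeR, 4 in DESeq2 with or without the offset, 3 with unmatched transcripts kept, with protein coding transcripts only and at an adjusted P under 0.05, and 3 to 6 without 1 library (3 without shNT replicate 1, and 4 without shNT replicate 3 or any 1 shARMC5 library). Other receptors called were 0 in all 16 alternatives. ARMC5 was called in all 16, at -1.15 to -1.02. The summed level of the members in shNT, 500.6 TPM, was 452.9 TPM over protein coding transcripts only, and 488.5 to 514.2 TPM without 1 shNT library. The cause of these shifts was not tested. Deviations of same-numbered libraries from their group means had correlations of -0.0136, -0.0059 and -0.0216 over 13737 genes. These correlations cannot decide whether the samples were paired by number, since a pairing could act on only part of the genes. The labels do not say whether they were. With the replicate number as a block, 1766 genes were called, 1061 of them among the 1064, 11 pathway genes and 4 members. No called member changed sign in any alternative. The values of TNFRSF11A, TNFRSF10C, TNFSF10 and the FAS forms rest on few reads, which limits their precision.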

Other observations

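Genes whose level followed that of TNFRSF12A most closely were listed as a description. Correlations were taken over the 6 libraries, whose division into groups and differing depths are common to all genes. Among 10368 genes averaging 5 CPM or more, the 5 highest Pearson correlations of log2 CPM included those of SLC25A4 (0.9967), MPDU1 (0.9955), RHOD (0.9941) and SEC61A1 (0.9924). SLC25A4 encodes a mitochondrial ADP/ATP carrier, MPDU1 a protein of dolichol-linked glycosylation, RHOD a small GTPase and SEC61A1 the channel subunit of the endoplasmic reticulum translocon. RHOD was at 64.83 CPM in shARMC5 and 53.78 CPM in shNT on average (log2 fold change 0.27, standard error 0.04).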
